A study of Arabidopsis thaliana with 96 samples.

Results

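The 33 genes described here were chosen as rising in the stele, the vascular core of the Arabidopsis thaliana root, at 3 to 8 h of salt and not in the 3 outer cell types. They are 33 of the 13356 genes that the annotation used named as the only gene of a probe set. Another 8730 probe sets on the array had no gene name there and were not searched. The rule took the mean of the salt 3 h and salt 8 h group means minus the mean of the 2 standard-medium group means of the same cell type. A gene was kept when this change was at least 1 (log2, that is 2-fold) in the stele and at most 0.3 in each of epidermis, cortex and endodermis, with a stele salt mean of at least 6 (log2). The stele threshold alone held for 452 genes, and for 329 together with the level. These changes therefore chose the genes and are given below as a description, without a test.

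RNA came from roots of Columbia seedlings 5 to 7 days after germination, converted to protoplasts and sorted by green fluorescent protein (GFP). WOL::GFP served for the stele, WER::GFP for the epidermis, COR::GFP for the cortex and SCR::GFP for the endodermis, so cell type and reporter line cannot be told apart. The seedlings had spent 1 h or 48 h on standard medium, or 1, 3, 8, 20, 32 or 48 h on 140 mM NaCl, and each of the 32 groups has 3 arrays. Standard medium was sampled at 1 h and 48 h, so salt at the times between is set against standard medium of other durations. The labels do not say that replicates were separate cultures, so p-values rest on a spread between samples that may be only technical. Levels are deposited log2 values, and a lower value in sorted cells can mean fewer cells of a type or less RNA per cell, which cannot be told apart.

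The stele holds xylem, phloem, procambium and the pericycle, the layer from which lateral roots start. Xylem vessels carry water and ions to the shoot, and their walls are thickened and lignified after the cells have taken their shape. Class III peroxidases, blue-copper proteins and wall-modifying enzymes of the apoplast, the space outside the cell membrane, act in such walls. In salt, the stele is the tissue from which sodium is loaded into or kept out of the xylem stream. Of the 33 genes, 6 carry a symbol in the gene table used (XTH20, LPR2, LBD16, TUA1, ATB2 and WNK9) and 27 only a locus code. The protein families given for locus codes are background knowledge and were not read from the tables.

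Rising at 3 to 8 h is true of the 33 by construction against the mean of both standard groups, and it depended on which standard group was taken. With standard 1 h alone, 30 of the 33 genes were at least 1 higher in the stele at 3 to 8 h, with a median difference of 1.82 (log2). This held for 7.64% of the 7281 tested genes. With standard 48 h alone 16 were, with a median of 0.97, against 6.11% of tested genes. The rule applied with standard 1 h alone in every cell type gave 56 genes, 25 of them among the 33, and with standard 48 h alone 19 genes, 14 of them among the 33. At salt 1 h, 25 of the 33 were at least 1 above standard 1 h, where 6.85% of tested genes were, and 15 were at least 1 above the mean of both standard groups, where 4.22% were. These counts rest on standard arrays that the rule used, among them a low one of standard 1 h described below, so nothing is read from the gap to other genes.

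Several of the genes act in the wall and the apoplast. XTH20, a xyloglucan endotransglucosylase/hydrolase that cuts and rejoins wall xyloglucan, had the largest change of all, 2.38 (SE 0.25). In stele standard 1 h its log2 level was 7.51, 7.88 and 6.29 on the 3 arrays, and in standard 48 h it was 8.19, 8.02 and 7.82. It stood at 8.80, 8.52 and 8.61 at salt 1 h, at 9.94, 10.18 and 10.03 at salt 3 h, and at 10.31, 9.90 and 9.59 at salt 8 h. All 3 arrays at each of these salt times were above all 6 standard arrays. At salt 20 h the level was 8.36, 9.37 and 8.05, which overlapped the standard arrays. At salt 32 h all 3 arrays were again above all 6 standard arrays, and at 48 h they overlapped them. Endodermis means of XTH20 were 7.66 and 8.52 in the 2 standard groups, then 8.07 and 7.90 at salt 3 h and 8 h. In the epidermis it lay between 4.25 and 5.28 in all 8 groups.

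AT1G26450, a protein with an X8 carbohydrate-binding domain of the kind that binds callose or related glucans, took another course. Its stele level was 6.64, 7.23 and 6.22 in standard 1 h and 7.49, 7.14 and 7.10 in standard 48 h. Its highest means were at both ends of the course, with 9.15, 8.97 and 8.72 at salt 1 h and 9.37, 8.98 and 8.84 at salt 48 h. At salt 3 h it was 8.31, 8.37 and 8.32, again above all standard arrays. While the stele level stood high, its cortex mean was 6.82 in both standard groups and 5.67 and 5.47 at salt 3 h and 8 h.

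Both class III peroxidases, enzymes that oxidise phenolics in the wall, differed between the standard groups. AT5G51890 stood at 9.16, 9.69 and 8.10 in stele standard 1 h, at 11.52, 10.56 and 11.36 in standard 48 h and at 10.94, 11.06 and 11.32 at salt 3 h. The salt arrays were thus above standard 1 h and within the range of standard 48 h. Its 3 to 8 h difference was 2.31 against standard 1 h and 0.15 against standard 48 h. AT1G71695 had 5.11, 5.64 and 4.57 in standard 1 h, 6.87, 6.32 and 6.80 in standard 48 h, and 7.24, 7.02 and 7.16 at salt 3 h. Here the salt 3 h arrays were above both, with 2.24 against standard 1 h and 0.69 against standard 48 h.

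AT3G27200 and AT5G26330 are of the cupredoxin type, blue-copper proteins mostly held at the cell surface. AT3G27200 had 9.19, 9.59 and 7.84 in stele standard 1 h, 10.74, 9.96 and 10.76 in standard 48 h and 11.15, 10.92 and 11.35 at salt 8 h. AT5G26330 had 6.06, 6.42 and 5.09 in standard 1 h, 7.68, 6.48 and 7.28 in standard 48 h and 7.92, 7.66 and 8.46 at salt 8 h. For both, salt 8 h lay above standard 1 h on every array, and for AT5G26330 1 salt 8 h array (7.66) fell just below the highest standard 48 h array. AT3G18280, of the lipid-transfer protein type, was the highest of the 33 in the stele, with 12.02, 12.00 and 12.11 at salt 3 h over 9.72, 10.22 and 9.41 in standard 1 h. It did not overlap standard 48 h (10.85, 10.45 and 10.67) at 3 h.

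AT5G40020, a thaumatin-like protein, had the widest gap between the standard groups. Its stele level was 7.35, 7.69 and 5.78 in standard 1 h, 9.59, 8.54 and 9.46 in standard 48 h and 8.97, 9.24 and 9.59 at salt 3 h. Salt 3 h and standard 48 h overlapped. AT3G62160, an acyltransferase of the HXXXD family, had 6.40, 6.77 and 4.83 in standard 1 h, 8.51, 7.01 and 8.77 in standard 48 h and 7.57, 8.22 and 8.40 at salt 3 h. It changed by 0.05 against standard 48 h, the smallest value of the 33.

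**Figure D1:**
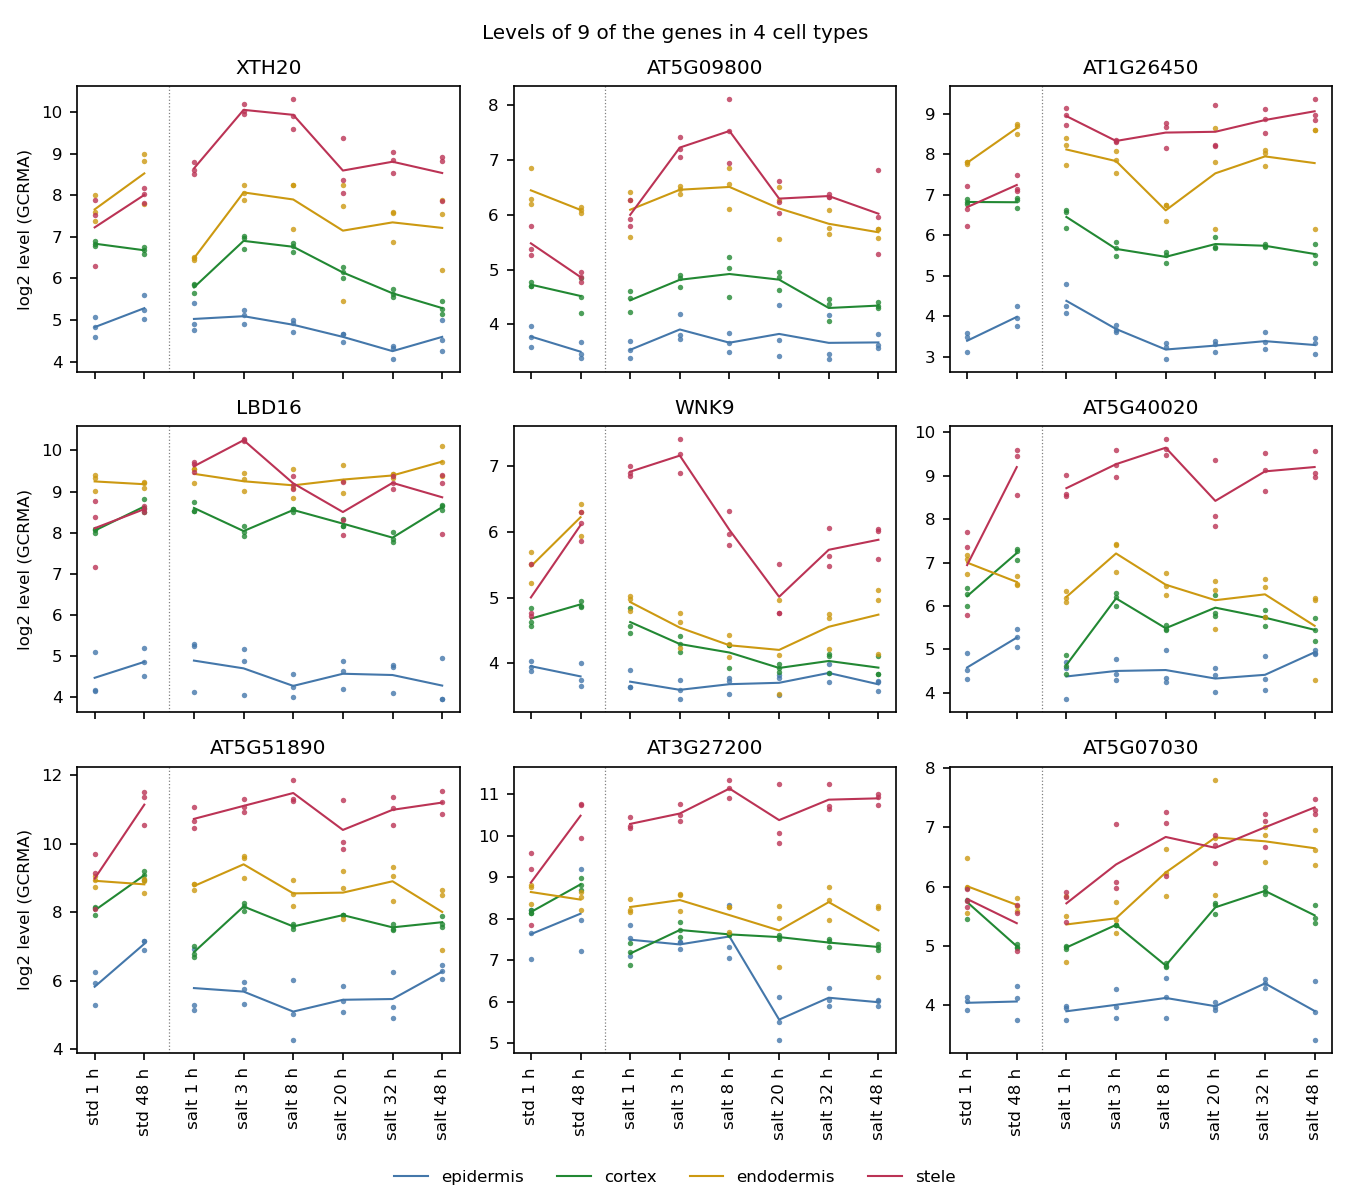
Log2 level (y axis) of 9 of the genes in the 4 sorted cell types, with the 2 standard groups left of the dotted line and the 6 salt times right of it (x axis, categories in order of time and not to scale). Points are arrays and lines join group means of 3. XTH20 and AT5G09800 rise above both standard groups in the stele at 3 h and 8 h. AT5G40020 and AT5G51890 stand about as high in stele standard 48 h. AT3G27200 overlaps standard 48 h at salt 3 h and lies above it at 8 h.

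Among the regulators, LBD16, a LOB-domain transcription factor that acts in the auxin-induced start of lateral roots, was highest at salt 3 h. Its stele level was 8.39, 8.78 and 7.16 in standard 1 h, 8.65, 8.57 and 8.49 in standard 48 h and 10.27, 10.22 and 10.26 at salt 3 h. At salt 8 h it was 9.37, 9.16 and 9.07, still above all 6 standard arrays. At 20 h it was 8.31, 9.24 and 7.95, overlapping them. At 32 h LBD16 was again above all 6 on every array, and at 48 h it overlapped them. In standard medium its level was not particular to the stele, with endodermis means of 9.25 and 9.18 and cortex means of 8.05 and 8.64. LBD29, the related gene on the pericycle list, had stele means of 4.56 and 4.70 in the standard groups, 5.77 and 5.86 at salt 1 h and 3 h, and 3.64 at 8 h. Its mean change over 3 to 8 h was 0.12 (SE 0.17), not past the threshold.

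AT1G61660, a basic helix-loop-helix transcription factor, had stele means of 6.84, 8.29, 8.97 and 8.84 in standard 1 h, standard 48 h, salt 3 h and salt 8 h. WNK9, a kinase of the with-no-lysine family, had 4.72, 5.51 and 4.77 in standard 1 h, 6.30, 5.86 and 6.13 in standard 48 h, 6.99, 6.84 and 6.89 at salt 1 h and 7.18, 6.88 and 7.40 at 3 h. It was back at 4.76, 5.51 and 4.76 at 20 h, the range of standard 1 h. The early salt arrays of WNK9 were above all standard arrays, and those at 8 h (6.31, 5.80 and 5.96) were not. AT5G09800, of the U-box and armadillo-repeat type found in ubiquitin ligases, had the second largest change, 2.21 (SE 0.17). It had 5.26, 5.79 and 5.38 in standard 1 h and 4.86, 4.96 and 4.77 in standard 48 h, and stood at 7.42, 7.06 and 7.20 at 3 h and 8.11, 6.95 and 7.53 at 8 h. It thus cleared both standard groups on every array at both times. AT5G17980, a C2-domain protein of the type that binds membranes, changed by 1.87 (SE 0.24), from means of 4.24 and 4.56 to 6.46 and 6.07.

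Of the transport and metal proteins, AT1G25530, of an amino acid transporter family, had a stele level of 6.35, 6.92 and 5.32 in standard 1 h, 6.34, 6.25 and 6.45 in standard 48 h and 7.96, 8.21 and 8.21 at salt 3 h, with no overlap. LPR2, a multicopper oxidase that acts in the arrest of root growth on low phosphate, had 5.75, 6.01 and 5.25, then 6.30, 5.66 and 6.23 in the standard groups. It reached 7.75, 7.53 and 7.68 at 3 h and 7.30, 7.26 and 7.25 at 8 h, above every standard array. AT2G28660, of a copper-chaperone type, had standard means of 5.71 and 5.76 and 7.59 at 3 h. AT1G16310, of the cation efflux family, had 5.70 and 6.55 in the standard groups, 7.93 at 3 h and 6.82 at 8 h. ATB2, an aldo/keto reductase, was a high gene in 3 cell types. Its level at salt 3 h was 11.24 in the stele, 10.97 in the endodermis and 10.25 in the cortex, and its stele change was 1.08 (SE 0.13).

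Other genes act in the cytoskeleton and in protein handling. TUA1, an alpha-tubulin best known from pollen, had stele means of 5.53 and 5.92 in the standard groups, 7.41 at 3 h and 6.61 at 8 h. Sequence shared among tubulin genes could let its probes read other alpha-tubulins, which was not tested. AT5G54660, of the small heat shock protein type, was highest at salt 1 h (6.96, 6.78 and 6.82) over standard means of 4.30 and 5.06. AT1G77020, with a DnaJ co-chaperone domain, and AT5G07030, an aspartyl protease, were highest at 48 h, with means of 7.03 and 7.34. AT5G07030 had the smallest change of the 33 at 3 to 8 h, 1.02 (SE 0.19). AT3G15650, of the alpha/beta hydrolase type, had 6.34, 7.31 and 8.42 in standard 1 h, standard 48 h and salt 3 h, and AT1G24530, a WD40-repeat protein, had 6.76, 7.63 and 8.56.

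The other 8 genes are given without a role or with a family of unknown function. AT5G60720, with a domain of unknown function, had stele means of 5.39 and 7.37 in the standard groups and 7.46 and 7.91 at salt 3 h and 8 h. AT5G04080 codes for a small cysteine-rich protein with a transmembrane module. AT3G17110 is a transcribed pseudogene in the gene table. Both had standard 1 h below standard 48 h in the stele, at means of 4.97 and 6.57 for AT5G04080 and 8.56 and 10.05 for AT3G17110. At salt 3 h AT3G17110 was at 11.00, 10.96 and 10.99, above all standard arrays, and AT5G04080 at 6.50, 6.69 and 6.79, which was not. AT1G47410 had 5.95, 6.27 and 5.63 in standard 1 h, 8.52, 7.25 and 8.18 in standard 48 h and 7.94, 8.35 and 8.51 at salt 3 h. AT1G58070 had 6.59, 6.48 and 5.34, then 8.39, 7.30 and 8.27, then 7.80, 8.05 and 8.29 in the same 3 groups. For these 2 genes salt 3 h lay above standard 1 h and overlapped standard 48 h. AT5G52540 had 6.74, 6.87 and 6.10 in standard 1 h, 6.87, 6.14 and 6.89 in standard 48 h and 8.23, 8.05 and 8.25 at salt 3 h, with no overlap. AT3G48185 and AT4G14650 were low genes, with standard means of 4.72 and 4.87 for the former and 5.24 and 4.61 for the latter. At salt 3 h they were at 6.19 and 6.37. The changes of these 8 lay between 1.07 for AT1G58070 and 1.44 for AT1G47410.

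Over the 6 salt times, 18 of the 33 genes had their highest stele mean at 3 h, 10 at 8 h, 3 at 48 h (AT1G26450, AT1G77020 and AT5G07030) and 2 at 1 h (AT5G54660 and AT5G04080). The rule chose genes by a high stele mean at 3 h and 8 h, so it favours peaks at those times. The times of the peaks were not counted for all tested genes, and nothing is read from these counts. The lowest salt mean was at 20 h for 20 genes. Every array at salt 3 h was above all 6 standard arrays for 24 of the 33 genes, against 23.7% of tested genes; the rule used these arrays, so nothing is read from the gap. At salt 8 h this held for 17 genes, against 18.4%, at 1 h for 18, against 15.6%, at 20 h for 9, against 16%, at 32 h for 13, against 20.4%, and at 48 h for 6, against 24.6%. Those comparisons share the 6 standard arrays with the rule and carry no test. At least 1 above the mean of the standard groups were 15 genes at 1 h, 27 at 3 h, 24 at 8 h, 7 at 20 h, 15 at 32 h and 16 at 48 h. The same held for 4.22%, 7.36%, 7.16%, 5.04%, 7.7% and 11.5% of tested genes.

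Some single stele arrays stood apart for nearly all 33 genes. Replicate 3 of stele standard 1 h was the lowest of its group for 30 of the 33, with a mean over the genes of 5.78 against 6.49 and 6.85 for replicates 1 and 2. It also had the lowest mean correlation with its own group of all 96 arrays, 0.93. Replicate 2 of stele salt 20 h was the highest of its group for all 33 genes, with a mean of 8.03 against 7.07 and 7.02. Replicate 2 was the lowest for 26 genes in standard 48 h, and replicate 3 for 31 at salt 32 h and 25 at 48 h. Without stele standard 1 h replicate 3 the rule kept 22 genes, and without its replicate 2 it kept 44. In the endodermis, replicate 3 of salt 20 h had a mean over the genes of 5.40 against 6.46 and 6.79. Replicate 1 of endodermis salt 48 h had 5.51 against 6.53 and 6.45. Both arrays enter the stele excess and the endodermis values given below for those times.

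**Figure D2:**
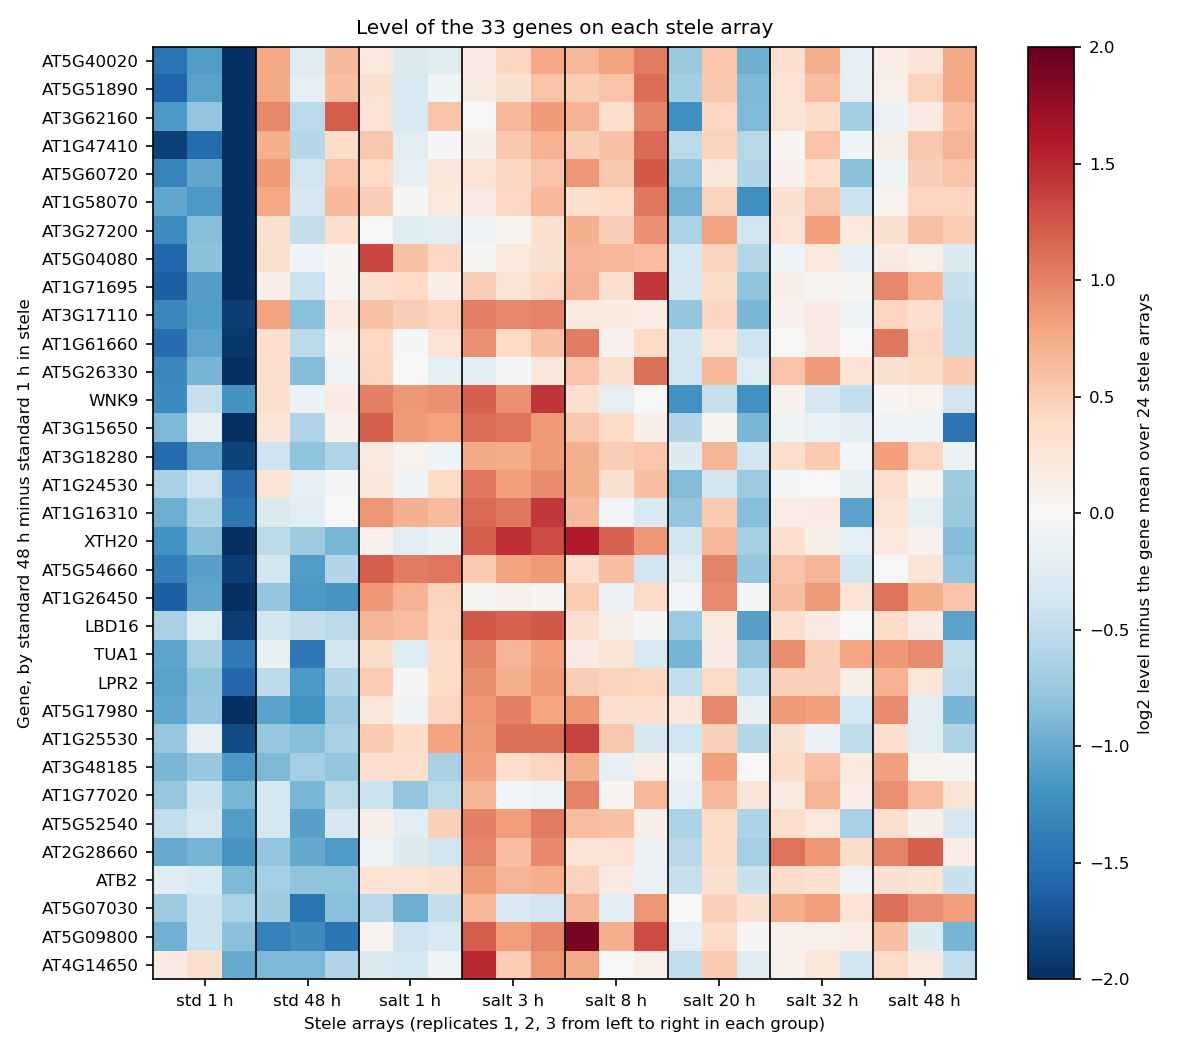
Level of each of the 33 genes (rows) on each of the 24 stele arrays (columns, 3 per group), as log2 level minus the mean of that gene over the 24 arrays; colour runs from 2 below (blue) to 2 above (red), and values past either end take the end colour. Rows are ordered by standard 48 h minus standard 1 h; standard 1 h is low in the upper rows while standard 48 h is not, and replicate 2 of salt 20 h is above its group for every gene.

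Standard 48 h minus standard 1 h in the stele is given as a description, since the rule chose the genes through the mean of these same arrays and the low replicate 3 of standard 1 h enters both. Of the 33 genes, 13 stood at least 1 higher at 48 h and none at least 1 lower. All 13 were past both thresholds of the limma fit (adjusted p under 0.05 and a difference of at least 1), as were 3.36% of tested genes higher and 2.91% lower, and nothing is read from that gap. Among 411 other tested genes that were called higher in the stele than in the other 3 types at salt 1 h, 24.1% passed in the higher direction, and 20% to 13.5% in the like sets drawn at salt 48 h and 20 h. The largest differences were those of AT5G40020 (2.26, SE 0.33), AT5G51890 (2.16, SE 0.37), AT3G62160 (2.10, SE 0.31), AT1G47410 (2.03, SE 0.29) and AT5G60720 (1.98, SE 0.25). The other 8 were AT1G58070, AT3G27200, AT5G04080, AT1G71695, AT3G17110, AT1G61660, AT5G26330 and WNK9, between 1.85 and 1.10. Both peroxidases and both cupredoxin-type proteins were thus among the 13, and XTH20, LBD16, LPR2, TUA1 and ATB2 were not.

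All 3 arrays of standard 48 h were above all 3 of standard 1 h for 16 of the 33 genes, against 14% of tested genes. When the spread was taken from these 6 arrays alone, 1 of the 13 passed both thresholds. Without standard 1 h replicate 3 the number past them was 11, and without its replicate 2 it was 18.

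These 13 genes and the other 20 separated when salt was set against standard 48 h alone. The 13 were 0.05 to 0.69 higher at 3 to 8 h than in standard 48 h, with a median of 0.35, and none reached 1. The other 20 were 0.73 to 2.51 higher, with a median of 1.22, and 16 reached 1. As standard 48 h enters both measures, this is a description. By gene, the largest differences from standard 48 h were those of AT5G09800 (2.51), XTH20 (1.98), AT5G17980 (1.71), AT1G25530 (1.53) and AT2G28660 (1.48). Only AT5G09800, AT4G14650, AT5G07030 and ATB2 of the 33 had a larger difference from standard 48 h than from standard 1 h.

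**Figure D3:**
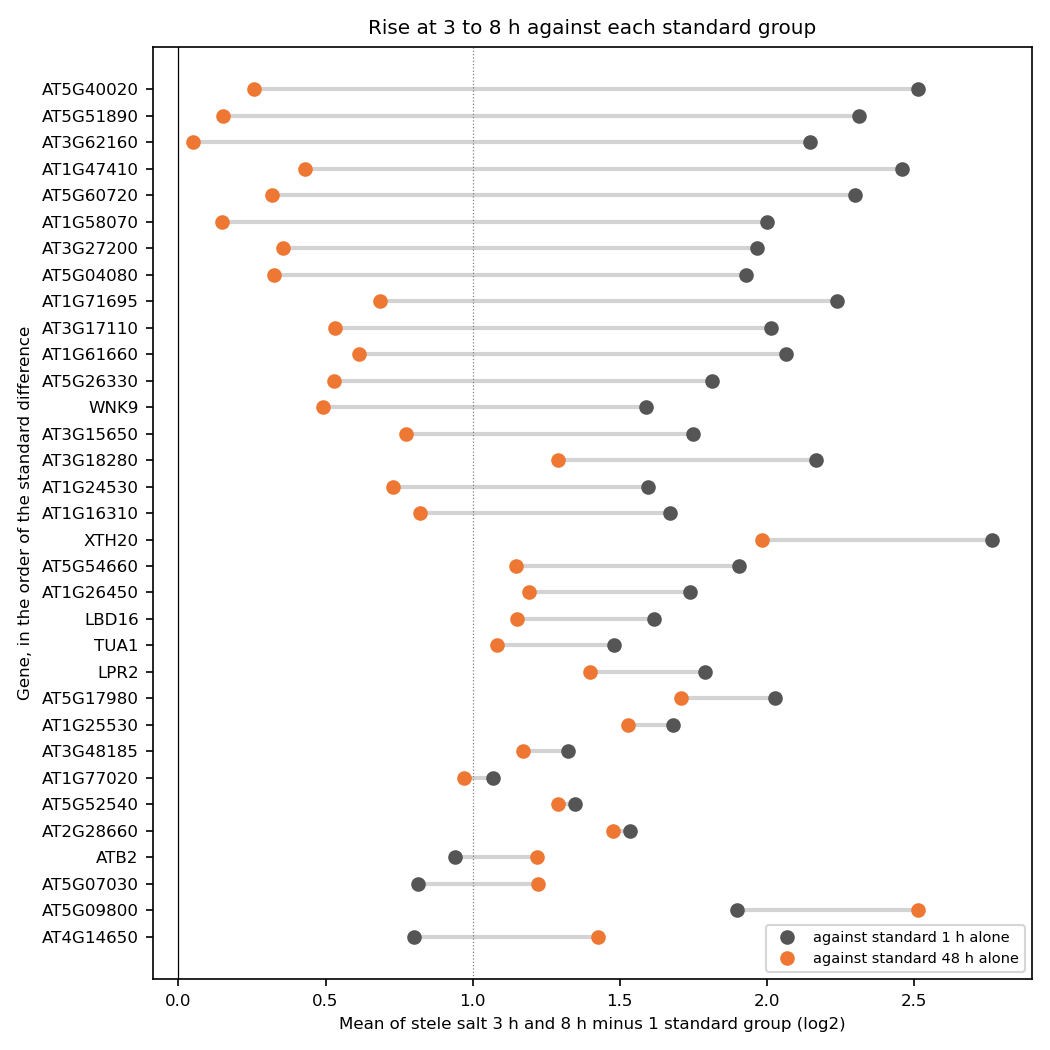
Mean of stele salt 3 h and 8 h minus standard 1 h alone (grey) and minus standard 48 h alone (orange) for the 33 genes (rows), in log2. The dotted line marks 1; the 13 upper genes lie between 0.05 and 0.69 against standard 48 h, and 16 of the other 20 lie at 1 or more.

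The same difference was set against its mean in the 3 other cell types, a comparison added after the data had been seen and again on arrays that the rule used. In the limma fit 10 of the 33 genes passed both thresholds with the larger difference in the stele and none with the smaller, beside 1.39% and 0.893% of tested genes, and nothing is read from the gap. They were AT1G47410 (2.06, SE 0.33), AT5G40020 (1.85, SE 0.38), AT3G62160, AT3G15650 (both 1.65), AT5G60720 (1.54), AT5G51890, AT1G58070, AT3G27200, AT5G26330 and AT1G71695. Among the 411 other stele-high genes the share was 14.4%. AT5G40020 had standard means of 6.94 and 9.20 in the stele. Its endodermis means were 7.00 and 6.55, and its cortex means 6.22 and 7.22. AT1G24530, not among the 10, had 6.76 and 7.63 in the stele and 7.14 and 8.17 in the endodermis. Without stele standard 1 h replicate 3 the 10 became 3, and without standard 48 h replicate 1 or replicate 3 they became 5.

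**Figure D4:**
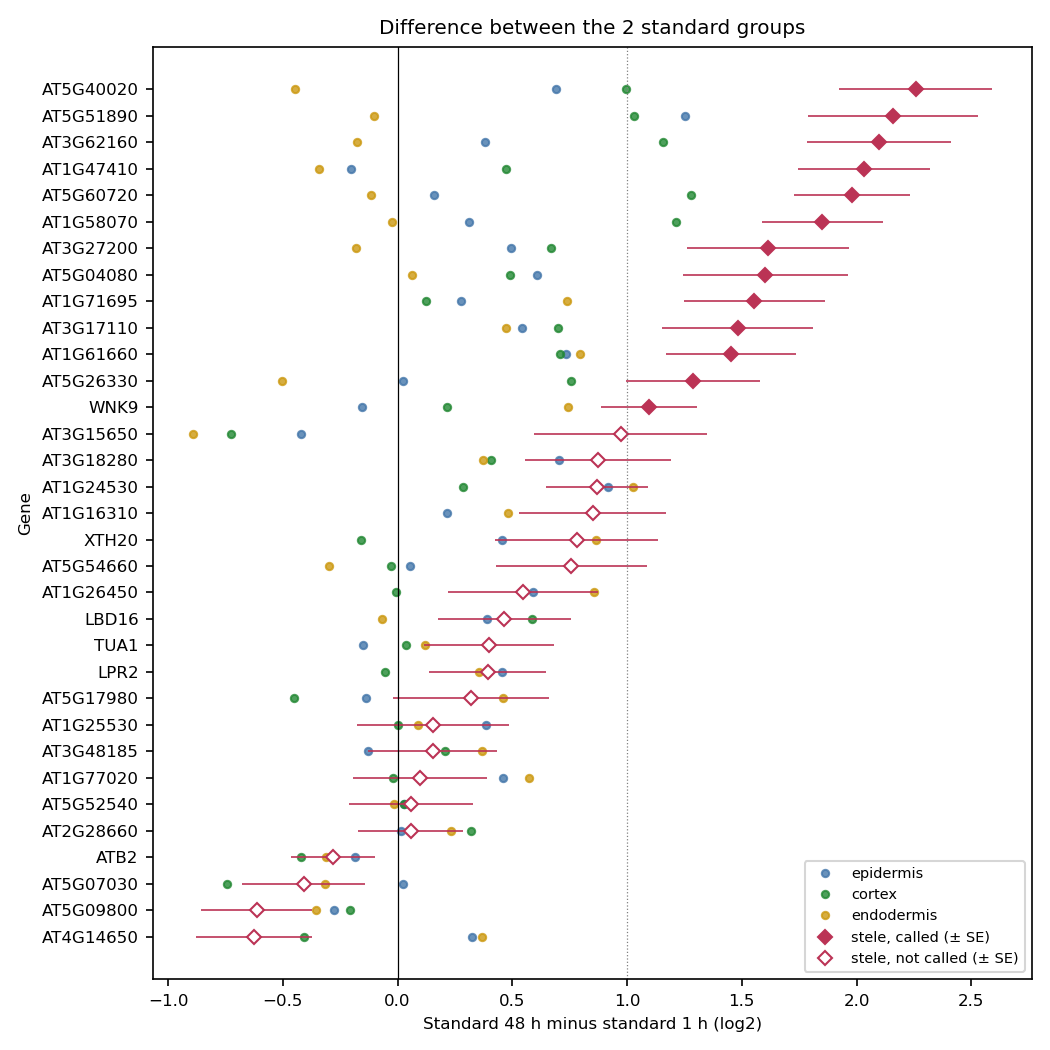
Standard 48 h minus standard 1 h (x axis, log2) for the 33 genes (y axis) in the stele (diamonds, with bars of 1 SE from the fit, filled where past both thresholds of the fit) and in the other 3 cell types (circles). The rule used these arrays, so the plot is a description; the 13 filled genes lie between 1.10 and 2.26 in the stele, to the right of all 3 other cell types.

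Values of some other measures moved with these groups. The xylan synthesis gene GUT2 acts in secondary walls. It was the only gene of 27 on the xylem and secondary wall list with a single-gene probe set named in the annotation used. GUT2 had stele means of 6.17 in standard 1 h, 7.51 in standard 48 h and 7.17, 7.50 and 7.79 at salt 1, 3 and 8 h. Its range was 5.58 to 6.57 in standard 1 h and 7.00 to 7.98 in standard 48 h, so those groups did not overlap. The 3′ minus 5′ signal of the GAPDH control, a sign of RNA integrity, was −0.34 to −0.23 in standard 1 h and −0.21 to −0.13 in standard 48 h. That of actin was 1.32 to 1.47 and 1.68 to 1.93. That of ubiquitin did not separate these groups, with −0.26 to 0.01 and −0.25 to −0.05. At salt 3 h GAPDH (−0.29 to −0.19) overlapped both standard groups, and actin (1.43 to 1.50) overlapped standard 1 h alone. At salt 8 h GAPDH (−0.22 to −0.14) overlapped standard 48 h alone, and actin (1.39 to 1.57) overlapped standard 1 h alone. At salt 1 h GAPDH was at −0.05 to −0.02 and actin at 1.68 to 2.62. The part of RNA integrity in the result was not tested.

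Of 5 tested marker genes of other cell types, 3 fell in the stele sort at salt 3 to 8 h. The root hair genes EXPA7 and EXPA18, 2 of 10 on that list with a value here, had a summed level of 10.99 to 11.37 in stele standard 1 h, 10.11 to 11.07 in standard 48 h, 8.50 to 9.31 at salt 3 h and 7.60 to 10.20 at 8 h (log2 of the sum). Both fell by limma at 3 to 8 h, EXPA7 by 1.87 (SE 0.32, adjusted p 7.76e-07) and EXPA18 by 1.64 (SE 0.32, adjusted p 1.07e-05). The 3 cortex genes summed to 7.79 to 8.92 and 8.26 to 8.51 in the standard groups and 4.72 to 4.98 at salt 3 h, with AT1G62510 called lower by 4.63 (SE 0.28). GSO1, the only endodermis gene of 10 with a named single-gene probe set, was at 8.78 to 9.84 and 8.05 to 8.10 in the standard groups. It was at 8.12 to 8.65 at salt 3 h. No marker was at 0, but the lowest value on any array was 1.71, so this says nothing about detection. The cortex gene AT1G62500 was at 2.96 to 2.98 in all 4 cell types in standard medium and did not mark the cortex. AT1G09750 was at 3.44 in the stele there, so the cortex sum rests mostly on AT1G62510 (8.18). None of 3 root cap genes had a single-gene probe set named in the annotation used. EXPA7 and EXPA18 were no higher in the epidermis sort than in the stele sort in standard medium, at 9.16 and 8.53 against 9.99 and 9.65. Their summed stele level was 10.21 to 11.29 at salt 20 h, when most of the chosen genes had their lowest salt mean. At 48 h it was 8.40 to 9.64. EXPA7 was lowest of its group on salt 20 h replicate 2 (8.98), where the chosen genes were highest. It was highest on standard 48 h replicate 2 (10.34), where most of them were lowest. The same held for replicate 3 of salt 32 h (9.56) and 48 h (8.53). In standard 1 h, replicate 3 was lowest for both EXPA7 (9.945) and most of them. The part of other cell types in the result was not tested. The stele label itself could be checked on 1 of 16 listed markers: LHW, a transcription factor of vascular cell number, was at 4.54 in the stele and 4.18 to 4.57 in the other types in standard medium, so it did not mark the sort. It was at 5.39 in the stele at both salt 3 h and 8 h.

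Stele against the mean of the other 3 cell types was tested on salt arrays that the rule did not use. By limma, the stele was higher for 32 of the 33 genes at salt 1 h (6.08% of tested genes), 30 at 20 h (6.72%), 33 at 32 h (7.88%) and 33 at 48 h (6.28%), and lower for none (3.12%, 2.39%, 3.68% and 1.41%). The rule favoured genes high in stele salt and without a rise elsewhere. The gap to all tested genes is therefore not independent of the choice, and nothing is read from it. The median excess of the 33 genes was 2.63, 2.31, 2.70 and 2.33, while the median of all tested genes was −0.01, −0.06, −0.03 and −0.02. The mean of the other types includes the epidermis, where the median level of the 33 was only 3.71 to 3.93 at these times. Median levels lay closer together in the stele (7.46, 6.94, 7.30 and 7.35) and the endodermis (5.87, 5.86, 5.84 and 5.56). At 48 h the stele was below the endodermis for LBD16 (8.86 against 9.73) and ATB2 (10.54 against 10.75). AT5G26330 had the largest excess at each of these times, 3.90, 3.64, 4.08 and 4.10. It was followed at 48 h by AT3G27200 (3.90), AT5G40020 (3.89), AT5G51890 (3.88) and AT1G71695 (3.56). The excess missed the size threshold of 1 for AT5G07030 at 1 h (0.97), and for ATB2 (0.78), TUA1 (0.76) and AT1G24530 (0.98) at 20 h. Without replicate 2 of stele salt 20 h, the high array, the count at 20 h was 27. The same excess in standard medium, on arrays the rule used and so without a test, had a median of 0.59 in standard 1 h and 1.13 in standard 48 h. It was above 0 for 31 and 32 of the 33 genes and at least 1 for 10 and 18, beside 5.69% and 5.25% of tested genes.

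**Figure D5:**
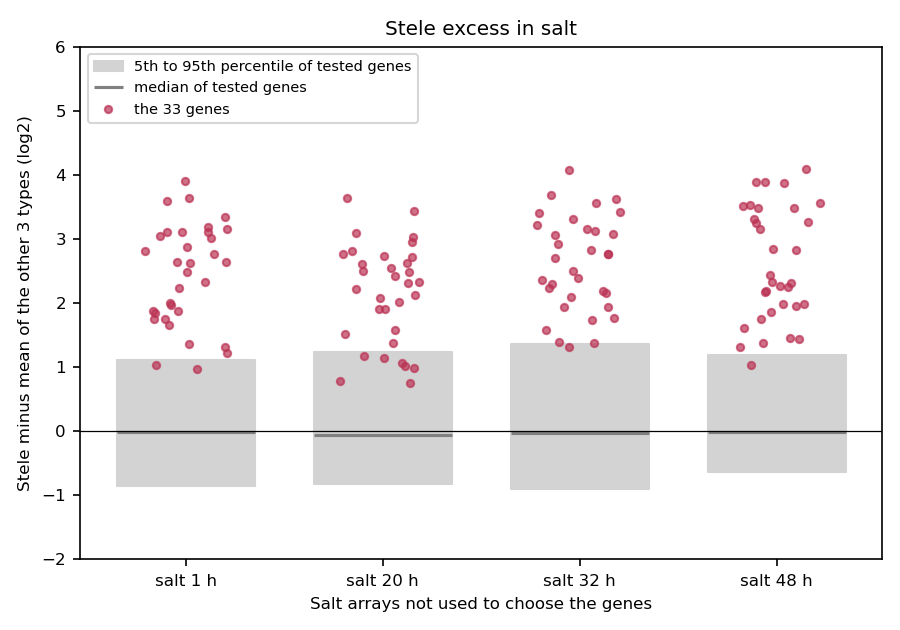
Stele minus the mean of epidermis, cortex and endodermis (y axis, log2) at the 4 salt times not used to choose the genes (x axis). Red points are the 33 genes, spread sideways at random, and grey bands span the 5th to 95th percentile of the 7281 tested genes with their median as a line; medians of the 33 genes lie between 2.31 and 2.70.

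The cell type with the highest mean differed between standard medium and salt. The rule asked for a rise in the stele and none elsewhere, so it favours such a switch. The counts below are a description, were not made for all tested genes, and nothing is read from them. The endodermis had the highest mean for 27 of the 33 genes in standard 1 h and for 21 in standard 48 h, and the stele for the other 6 and 12. In salt the stele had the highest mean for 31, 33, 32, 30, 31 and 31 genes at 1, 3, 8, 20, 32 and 48 h, and the endodermis for the rest. The exceptions were ATB2 at every time but 3 h, AT5G09800 at 1 h, LBD16 at 20, 32 and 48 h and AT5G07030 at 20 h. The widest gap of ATB2 was at 20 h, with 10.29 in the stele and 10.83 in the endodermis. The median level of the 33 genes was 5.95 and 7.15 in the stele in the standard groups and 8.05 at salt 3 h. In the endodermis it was 6.56 and 6.86, then 6.18 at 3 h, and in the epidermis it lay between 3.71 and 3.99 throughout.

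Some of the genes stood lower outside the stele in salt than in standard medium. Against their own standard mean, 10, 4, 7, 6, 15 and 13 of the 33 genes were at least 1 lower in the cortex at 1, 3, 8, 20, 32 and 48 h, where 6.81%, 3.32%, 8.89%, 9.86%, 11.1% and 9.78% of tested genes were. In the endodermis it was 10, 6, 15, 11, 9 and 13 genes, against 8.65%, 13.3%, 12.7%, 11.4%, 11.4% and 13%. In the epidermis it was at most 2 at any time, against 3.56%, 9.42%, 9.72%, 10.3%, 12.5% and 13.6%. The rule capped rises in these cell types at 3 and 8 h, and all these values share the standard arrays with it, so they carry no test. AT4G14650 was the clearest case, with endodermis means of 6.27 and 6.64 in the standard groups and 3.43 to 4.46 at all 6 salt times. AT1G25530 went from 7.29 and 7.37 to between 5.00 and 6.30 in the endodermis.

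Within the salt arrays of the stele that the rule did not use, the mean of 20, 32 and 48 h was compared with 1 h. By limma 1 gene was higher (2.93% of tested genes) and 4 were lower (2.95%). AT5G07030, the aspartyl protease, rose by 1.28 (SE 0.22, adjusted p 3.13e-06), from 5.83, 5.41 and 5.91 at 1 h to 7.49, 7.30 and 7.23 at 48 h. WNK9 fell by 1.37 (SE 0.17, adjusted p 1.23e-09), AT3G15650 by 1.34 (SE 0.31), AT5G54660 by 1.07 (SE 0.27) and AT1G16310 by 1.02 (SE 0.26), with adjusted p up to 0.00144. The difference of this change from the mean of the other cell types passed the test for WNK9 (−1.02, SE 0.20), AT5G54660 (−1.22, SE 0.31) and AT1G77020 (1.03, SE 0.28), against 2.68% of tested genes higher and 2.69% lower. AT5G07030 was not among them: in the endodermis its mean went from 5.36 at 1 h to 6.83, 6.77 and 6.65. Of the RNA integrity signs of the stele, GAPDH set 1 h apart and the others did so less or not at all. The GAPDH 3′ minus 5′ signal was −0.05 to −0.02 at 1 h. It was −0.31 to −0.12 at 20 h, −0.32 to −0.18 at 32 h and −0.23 to −0.10 at 48 h. That of actin was 1.68 to 2.62 at 1 h, which overlapped 20 h (1.43 to 1.87) and 48 h (1.50 to 1.82) but not 32 h (1.28 to 1.39). That of ubiquitin was −0.14 to −0.01 at 1 h and overlapped 20, 32 and 48 h. The part of RNA integrity in these changes was not tested.

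Salt 8 h minus salt 3 h in the stele is a description as well, since the rule took the mean of these arrays. In the limma fit none of the 33 genes was past both thresholds upward (3.91% of tested genes were) and 3 were downward (1.77%), and nothing is read from either gap. The difference was −1.13 (SE 0.21) for WNK9, −1.11 (SE 0.32) for the cation efflux gene AT1G16310 and −1.05 (SE 0.29) for LBD16. For all 3 genes the arrays of 8 h were all below those of 3 h. Without stele salt 8 h replicate 3, 1 of the 3 passed both thresholds.

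Of 14 lists of stress, hormone, transport and vascular genes with 258 genes in all, 21 genes had a single-gene probe set named here and 17 were tested, so 7 lists had none. In the stele at 3 to 8 h, 2 of the 17 were called higher and none lower by limma, against 6.08% and 9.82% of tested genes. One was LBD16, which is 1 of the 33 and was chosen on this comparison. The other was LEA4-5, a late embryogenesis abundant protein of dehydration, higher by 1.30 (SE 0.21, adjusted p 1.34e-07). Its stele mean was 8.63 in standard 1 h, 10.11 in standard 48 h, 11.57 at salt 1 h and 10.77 at 3 h. The median change of the 17 was 0.17, beside 0.10 for all tested genes. The dehydrin LTI30 changed by 0.44 (SE 0.08) and the phloem gene OPS by 0.95 (SE 0.17), both under the size threshold.

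At the edges of the rule, the smallest stele changes kept were those of AT5G07030 (1.02), AT1G77020 (1.02) and WNK9 (1.04). The nearest left out were AT2G04850 (0.99), AT5G21105 (0.97) and UBC29 (0.96). The largest changes kept in another cell type were 0.29 for AT1G47410, 0.28 for AT5G54660 and 0.26 for TUA1, and the nearest left out were 0.30 for AT1G24030, 0.31 for CHIL and 0.32 for AT5G40960. The lowest stele salt levels kept were 6.04 for AT4G14650 and AT3G48185 and 6.21 for AT5G54660, and the nearest left out were 5.94 for AT4G32860, 5.93 for AT1G54790 and 5.84 for AT5G07800. With no minimum on the level the rule kept 49 genes.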

How the data were processed

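The deposited values are log2 levels per probe set, made with GCRMA in Affymetrix Expression Console per the submitters' processing notes, which give no versions. No detection calls or counts come with them, so the number of arrays limits the precision. Of 22810 probe sets, 13513 named 1 gene in the platform annotation. The brightest was kept per gene. Genes with a group mean of at least 5 in some group were tested (7281, all 33 included). Comparisons used 1 mean per group over 96 arrays (R 4.3.3, limma 3.58.1, eBayes, 64 residual degrees of freedom), two-sided, and were tested on simulated data. A call needed an adjusted p under 0.05 and a difference of at least 1. Groups share replicate numbers in the labels. Same-numbered arrays had median correlations of −0.04 to 0.15 by cell type and number, with pairs below 0 in each, so they were not paired. For the 33 genes, differences between arrays that the rule used are given without p-values of single genes, though counts past the thresholds of the fit are shown. The p-values printed for 3 to 8 h belong to marker and list genes outside the 33. The genes, lists and tests were chosen with earlier results of these data known. Genes were named by rule: the 20 largest changes, list members, the 5 largest calls in each direction, genes beside a threshold, and genes with a known role. Scaling, filter, probe set rule, reference, spread and left-out arrays were varied. Figures and tables used Python 3.11.15, pandas 2.3.3, numpy 2.4.6 and matplotlib 3.10.9.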

Additional observations from a re-analysis of the deposited data

Results flagged for a closer look

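For 10 genes the difference between standard 48 h and standard 1 h was larger in the stele than in the mean of the other 3 cell types in the limma fit of that difference (chosen after seeing the data). Of tested genes, 1.39% passed in this direction. The fit runs on arrays that the rule used to choose the genes, so it is no independent test, and without stele standard 1 h replicate 3 the 10 became 3. The excess was 2.06 for AT1G47410, 1.85 for AT5G40020, 1.65 for AT3G62160, 1.65 for AT3G15650, 1.54 for AT5G60720, 1.43 for AT5G51890, 1.35 for AT1G58070, 1.29 for AT3G27200, 1.20 for AT5G26330 and 1.18 for AT1G71695. For 3 genes the change from salt 1 h to 20 to 48 h differed by limma between the stele and the other 3, on salt arrays that the rule did not use. The difference was −1.22 for AT5G54660, −1.02 for WNK9 and 1.03 for AT1G77020. Beside these, 2.68% of tested genes were called higher and 2.69% lower. Leaving out 1 array at a time gave 0 to 2 of the 33 genes higher and 1 to 2 lower.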

How the results depend on the processing

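The number of genes kept by the rule moved most with the reference: 56 with standard 1 h alone and 19 with standard 48 h alone, against 33. Quantile normalization kept 27 genes (26 of the 33) and median centring 31 (27 of the 33). Leaving out 1 array at a time gave 22 to 44 genes. The counts of stele excess stayed at 31 to 33 at salt 1 h, 27 to 31 at 20 h, 33 at 32 h and 32 to 33 at 48 h. The later course gave 1 to 2 genes higher and 2 to 5 lower, and its difference from the other types 0 to 2 higher and 1 to 2 lower. Median centring gave 2 higher and 1 lower for that difference, with WNK9 at −0.98. Standard 48 h against 1 h in the stele gave 11 to 18 higher and 0 to 1 lower, but 1 higher with the spread of its own 6 arrays. Its difference from the other types gave 3 to 12 higher and 0 to 1 lower. Salt 8 h against 3 h gave 1 to 3 lower, and the lists 2 to 3 genes higher and 3 lower, marker genes included. With the replicate block, standard 48 h against 1 h gave 13 higher, and no other count moved by over 1.5 times. Of 3472 gene values under the alternatives, 3377 kept direction and call, 95 kept direction only, and none changed direction. The cause was not tested.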
